A study of Mus musculus with 7 samples.

Results

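The epidermal growth factor (EGF) receptor family was followed in mouse brain tumours grown from NSCG, a glioma line that carries EGFRvIII, a form of the EGF receptor that lacks part of its extracellular region and signals without ligand. The members were 10 of all genes in the matrices, taken by symbol: the 4 receptors Egfr, Erbb2, Erbb3 and Erbb4, the 5 ligands Hbegf, Tgfa, Areg, Ereg and Btc, and the receptor inhibitor Errfi1. Whole tumours were dissociated and measured by droplet single-cell RNA sequencing (10x Genomics, 3′ ends) in 7 libraries. Every host was a C57BL/6 mouse of 7 to 10 weeks with a wild-type genotype, every tumour came from the same line (NSCG-mCherry, EGFRvIII+, Arf/Ink4a-/-), and each library pooled at least 2 mice, collected at about day 14.

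One library came from untreated mice (UT). The IgG group (2 libraries) received IgG2b isotype control at 10 mg/kg. The BP group (2 libraries) received anti-VEGF (B20, 5 mg/kg) plus anti-PD-L1 (10 mg/kg), and the BPI library added the PI3K inhibitor IPI-145 (10 mg/kg, daily gavage) to these antibodies. IgG, BP and BPI mice were treated for 3 rounds. The CD40 library received an agonist antibody against CD40 at 100 µg per dose for 2 doses, and the labels do not say whether a dendritic cell vaccine was added. They also do not say which IgG library, if either, had the gavage vehicle. The pooled library is the replicate, so variation between mice was not measured.

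EGF receptors are membrane tyrosine kinases that act in pairs, and ligand binding to 1 receptor of a pair starts signalling through RAS and ERK. Hbegf, Tgfa, Areg, Ereg and Btc are made as membrane-bound precursors that proteases of the ADAM family release, and all bind EGFR, while Hbegf, Ereg and Btc also bind ERBB4. ERBB2 binds no known ligand, ERBB3 has little kinase activity of its own and binds neuregulins, and Errfi1 (also called Mig6) encodes a cytoplasmic inhibitor of the receptor kinases whose transcription rises after receptor signalling. In gliomas, amplified or mutated EGFR is a frequent driver, and EGFRvIII is its most common mutant form.

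Total depth was 68997476 to 186793886 unique molecular identifiers (UMIs) per library, and 48588 cells remained after filtering, of which 31637 were tumour-like, 3576 monocyte/macrophage-like, 2624 T-like and 2364 microglia-like, while 5717 stayed unnamed. Names rest on marker genes, with the members left out of the genes that built the clusters. Tumour clusters 20, 21 and 26 (2935, 4369 and 5043 cells) were named only in a second pass with lower limits. They raised 4 of 9 tumour markers, while the other tumour clusters raised 6 to 9 in the first pass. The part of this difference in the levels below was not tested. The summed level of the tumour markers was 338 to 409 CPM (defined below) in IgG replicate 1, BP replicate 2 and BPI, and 820 to 1155 in the other 4 libraries. Those 3 libraries have consecutive library names, as do CD40 and IgG replicate 2, so treatment and library series are partly confounded. The barcodes of UT come from a different 10x list, so treatment and barcode list differ together in every comparison of UT. Between 0 and 27 cell barcodes were shared by any pair of libraries.

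Levels below are in CPM, the UMIs of a gene divided by all UMIs of the class in the library and scaled to parts per 1e+06. They count transcript ends and are not scaled by gene length, so levels are compared between cells and libraries, not between genes. Intervals are exact 95% Poisson intervals for levels and Clopper-Pearson intervals for shares of cells, and cover counting error only. Free RNA, transcripts from broken cells that enter every droplet, was profiled in the near-empty droplets and is given as its estimated share of a gene's UMIs.

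Egfr (ENSMUSG00000020122, chromosome 11, 16752203 to 16918158, plus strand, GRCm38) was a tumour cell transcript in these libraries: 97.9% of its 102270 UMIs in cells were in tumour-like cells, which held 83.3% of the UMIs of all genes. In tumour-like cells Egfr was at 60.2 CPM in UT. It was at 227 CPM in IgG replicate 1 and 196 in IgG replicate 2, at 161 in BP replicate 1 and 222 in BP replicate 2, and at 185 in BPI and 171 in CD40; pairs of values below keep this order of replicates. The 6 other libraries lay within 161 to 227, and UT lay below all of them. Astrocyte and oligodendrocyte markers also set UT apart in these cells. The 7 astrocyte markers summed to 801 CPM in UT and 24.6 to 313 in the other libraries, with 4 of 7 highest in UT, Aldoc alone at 724 CPM and Gjb6 at 0 in BP, BPI and CD40. The 7 oligodendrocyte markers summed to 16.5 CPM in UT and 3.48 to 6.17 elsewhere, with 7 of 7 highest in UT and Mobp and Ermn at 0 in IgG replicate 1. Their part in the Egfr level was not tested. The Egfr difference helped to choose the genes described here and is given without a test. The matrices list no separate feature for EGFRvIII or mCherry, so these counts are reads assigned to the mouse gene. They do not separate the mutant from the full-length receptor, and whether EGFRvIII transcripts are counted among them is not known.

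The low Egfr level in UT was seen in its 3 tumour clusters of 50 or more cells. Within cluster 8, which held UT and BP replicate 1, Egfr was at 42.4 CPM (95% interval 36.4 to 49.1) in 208 UT cells and 162.5 CPM in 4358 cells of BP replicate 1. In cluster 7, led by interferon-induced genes such as Ifit3, Egfr was at 36.0 CPM in UT and 114 CPM in BP replicate 1. UT's largest tumour cluster, 4, held Egfr at 79.98 CPM. The share of tumour-like cells with an Egfr UMI was 62.4% (60.5% to 64.2%) in UT and 77.1% to 87.8% in the other libraries. After thinning each cell to 2000 UMIs the shares were 11.7% and 25.4% to 34.4%. These are the same counts that helped to choose the genes, and they are given as a description.

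**Figure D1:**
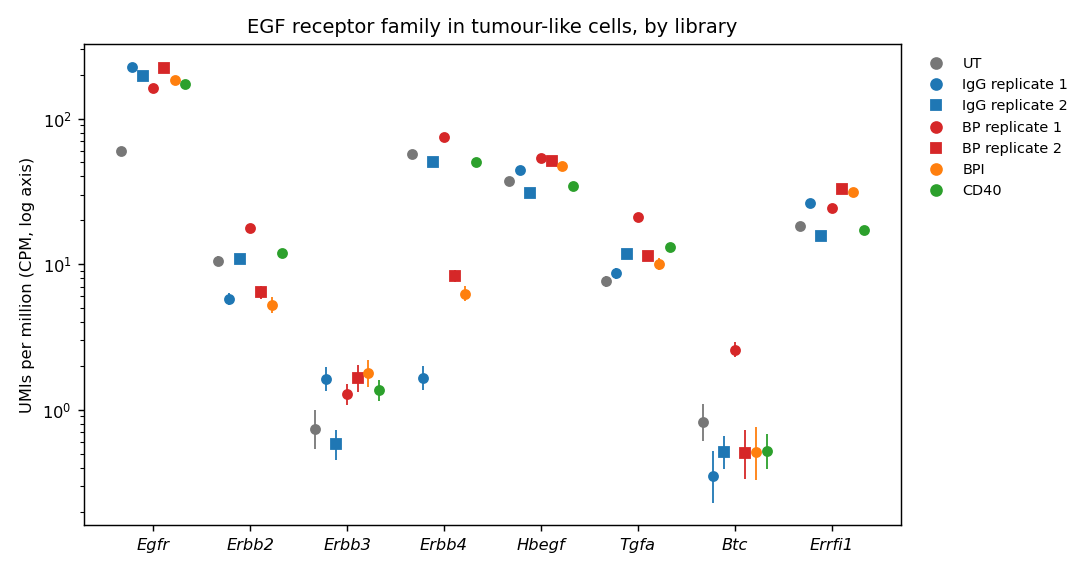
Level of 8 members in tumour-like cells, in CPM on a log axis, 1 point per library with its 95% Poisson interval (most intervals are smaller than the points). Egfr was at 60.2 CPM in UT and 161 to 227 CPM elsewhere, Erbb4 split the libraries into 2 ranges, and Hbegf varied from 30.7 to 53.7 CPM. Areg and Ereg were near 0 and are not drawn.

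Outside the tumour-like class, Egfr was found in astrocyte-like and some vessel cells and at low levels in most immune cells. Astrocyte-like cells had 291 CPM (219 to 379) in CD40 and 336 CPM (238 to 462) in IgG replicate 2, the only libraries with 20 or more such cells, where tumour-like cells had 171 and 196 CPM. Both astrocyte-like clusters also raised 8 of 9 tumour markers, and pooled over libraries Egfr was at 412 CPM in cluster 19.4 and 190 CPM in cluster 19.2. Mural-like cells had 42.6 and 86.5 CPM in the 2 libraries with 20 or more of them. Pooled over all libraries they had 138 CPM (117 to 162). Endothelial-like cells ranged from 0 UMIs in BPI to 80.4 CPM in BP replicate 1. Of their 191 Egfr UMIs, 92 were in cluster 0.1 (96 cells, 121 CPM), which raised 8 of 9 tumour markers, and the other endothelial-like clusters had 5.69 to 16.1 CPM. Unnamed cluster 0.2, led by the smooth muscle genes Acta2, Tagln and Myh11 and by Dcn, a fibroblast gene, had Egfr at 253 CPM (206 to 308) in CD40. Monocyte/macrophage-like cells had Egfr at 2.15 to 13.5 CPM, with 33% to 83% of the UMIs attributed to free RNA, and T-like cells at 2.56 to 10.8 CPM. Microglia-like cells ranged from 0 UMIs in UT to 24.4 CPM in IgG replicate 1, with 39% to 63% attributed to free RNA where UMIs were found.

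Plasmacytoid dendritic-like cells, interferon-producing cells of the blood and lymphoid organs, held Egfr too. It was at 75.6 CPM (63.7 to 89.0) in 203 cells of BP replicate 1, 57.3 CPM (34.0 to 90.6) in 35 cells of UT and 50.7 CPM (16.4 to 118) in 34 cells of BPI. Free RNA was estimated at 2.94% of the Egfr UMIs pooled over libraries, and NK-like cells had 0 to 14.1 CPM. The same class held Erbb3 at 26.4 CPM (19.6 to 34.8) in BP replicate 1 and 19.1 CPM (7.01 to 41.6) in UT, with 0 UMIs in BPI. In tumour-like cells Erbb3 stayed between 0.578 and 1.79 CPM. No test was made in this class, which had 20 or more cells in only 3 libraries.

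Erbb4 (ENSMUSG00000062209, chromosome 1, 68032186 to 69108059, minus strand), the neuregulin receptor of many neural cells, divided the tumours by library. In tumour-like cells Erbb4 was at 57.1 CPM in UT, 1.65 and 49.9 in IgG, 75.2 and 8.29 in BP, 6.28 in BPI and 50.6 in CD40. The 4 high libraries lay at 49.9 CPM or more and the 3 low ones, those with consecutive names and low tumour markers, at 8.29 CPM or less. Both the IgG and the BP group had 1 library on each side, and UT, BPI and CD40 have 1 library each.

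What Erbb4 the 3 low libraries had came mostly from few cells. Tumour clusters were taken where they had 300 or more cells in the library concerned, a limit chosen after the values were seen. In them Erbb4 was at 0.446 CPM in 4297 cells of IgG replicate 1. It was at 0.353 CPM in 3940 cells of BP replicate 2 and 0.638 CPM in 4079 cells of BPI. The other 102, 167 and 150 tumour-like cells held 73.5%, 95.9% and 90.2% of the Erbb4 UMIs. In BP replicate 2, for example, 69 cells of cluster 15 had Erbb4 at 439.6 CPM. The same calculation gave 51.2 to 75.6 CPM in the 4 high libraries, where the remaining cells held 0.761% to 2.19% of the UMIs. Cluster 15 raised 8 of 9 tumour markers, while clusters 20, 21 and 26, named in the second pass, raised 4 of 9. The part of such differences between tumour clusters in the Erbb4 levels was not tested.

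Erbb4 also differed between tumour clusters of the same libraries. In CD40 and IgG replicate 2, clusters 15 and 25 had 87.8 to 101 CPM, while clusters 24 and 28 had 3.40 to 4.35 CPM. Clusters 25 and 28 are both led by replication-dependent histone genes such as Hist1h1b, which mark cells in S phase, so that both sides include clusters led by these genes. In UT, Erbb4 was at 101 CPM in cluster 4 and 3.82 CPM in cluster 7.

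**Figure D2:**
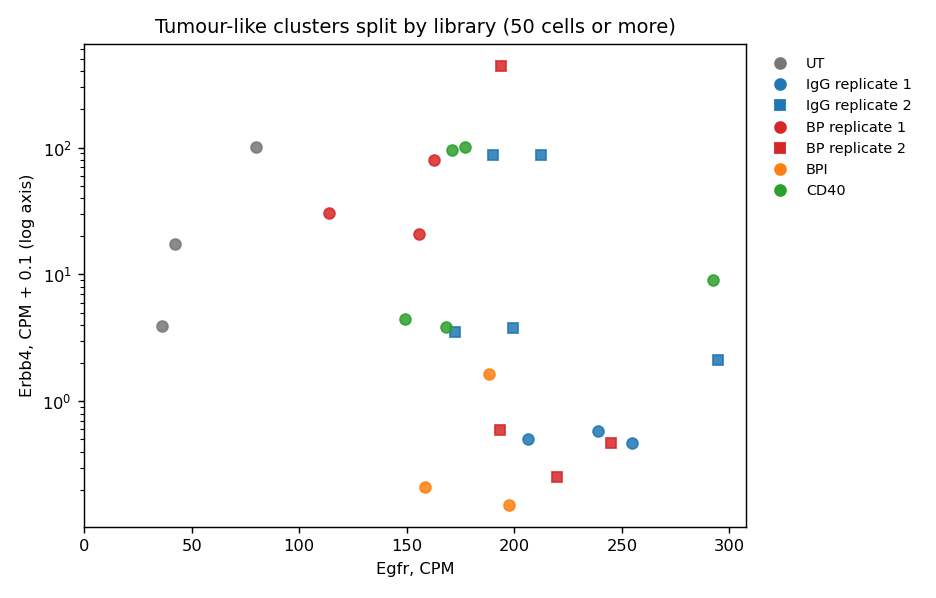
Egfr (CPM, linear axis) against Erbb4 (CPM + 0.1, log axis) in the tumour-like clusters, 1 point per cluster and library with 50 or more cells. Erbb4 was at most 1.53 CPM in the points of IgG replicate 1 and BPI, lay on both sides of 10 CPM within UT, IgG replicate 2 and CD40, and the UT points lie left of all others in Egfr.

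Erbb4 was also high in glial classes and in unnamed cells. Oligodendrocyte-like cells had Erbb4 at 752.5 CPM in CD40 and 919 CPM in IgG replicate 2, astrocyte-like cells at 921 and 549 CPM, and ependymal or choroid-like cells at 187 and 204 CPM. Of the 263 astrocyte-like Erbb4 UMIs, 224 came from the 29 cells of cluster 19.4 (1398 CPM), while the 41 cells of cluster 19.2 had 151 CPM. Of the unnamed cells, cluster 19.0, led by Lhfpl3 and Opcml, had Erbb4 at 1381 CPM in 37 cells of BP replicate 1. Erbb3, the partner receptor that Schwann cells and oligodendrocytes use for neuregulins, was at 68.9 CPM (51.3 to 90.6) and 66.5 CPM (44.5 to 95.4) in the oligodendrocyte-like cells of the same 2 libraries.

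Erbb2, the ligandless partner of the other receptors, lay between 5.24 and 17.7 CPM in tumour-like cells. Its levels were 10.5 in UT, 5.75 and 10.8 in IgG, 17.7 and 6.41 in BP, 5.24 in BPI and 11.9 in CD40. Again the 3 lowest values were those of IgG replicate 1, BP replicate 2 and BPI. Tumour-like cells held 96.1% of all Erbb2 UMIs in cells, against 83.3% of the UMIs of all genes, and the 3 tested immune classes had at most 1.69 CPM in any library. As a level, vessel cells were close to tumour-like cells. Pooled over libraries Erbb2 was at 11.1 CPM (5.72 to 19.3) in mural-like, 10.8 CPM in tumour-like and 8.50 CPM (6.62 to 10.8) in endothelial-like cells.

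Hbegf, heparin-binding EGF-like growth factor, came from tumour, vessel and myeloid cells. Tumour-like cells held 83.3% of its 28348 UMIs, the same share as over all genes. In tumour-like cells Hbegf was at 37.1 CPM in UT, 44.3 and 30.7 in IgG, 53.7 and 50.8 in BP, 46.9 in BPI and 34.6 in CD40. Both BP libraries were above both IgG libraries, and the fitted log2 fold change of 0.46 ± 0.30 (SE) did not pass the test (edgeR quasi-likelihood test, adjusted p of 1). As a level in CPM, vessel cells were higher in most libraries. Endothelial-like cells had Hbegf at 68.3 to 101 CPM in UT, BP replicate 1, IgG replicate 2 and CD40 and 13.55 CPM (2 UMIs) in BPI, and mural-like cells 60.9 and 116 CPM in CD40 and IgG replicate 2, the libraries with 20 or more such cells. Unnamed cluster 0.2 had 103 CPM in CD40.

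In monocyte/macrophage-like cells Hbegf was at 9.99 CPM in UT, 3.39 and 3.80 in IgG, 80.5 and 15.0 in BP, 10.1 in BPI and 4.97 in CD40. BP lay above IgG in both libraries, but the IgG values rest on 2 and 5 UMIs, of which 51% and 46% were attributed to free RNA. The log2 fold change of BP against IgG was 3.76 ± 0.83 with an adjusted p of 0.283 in edgeR and 0.0212 in DESeq2. It was also past the threshold without IgG replicate 1 (edgeR adjusted p = 0.00551) without BP replicate 2 (0.000136) and without the count filter (5.55e-07), and not without IgG replicate 2 (0.62) or BP replicate 1 (0.646), where the log2 fold change was 3.83 and 2.22.

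The high Hbegf level of BP replicate 1 lay in 1 cluster. Cluster 12, led by Arg1, Mrc1 and Chil3, genes of alternatively activated macrophages, held 1636 of the 1807 monocyte/macrophage-like cells of BP replicate 1 and was below 20 cells in each other library. Its Hbegf level was 84.2 CPM (79.8 to 88.7). Cluster 10, led by Ms4a4c, Lyz2 and Plac8, had cells of all 7 libraries, and there Hbegf was at 32.2 CPM (23.0 to 43.9) in BP replicate 1, 14.5 (9.17 to 21.7) in BP replicate 2, 3.39 (0.41 to 12.2) and 3.80 (1.23 to 8.86) in IgG, 10.2 in BPI, 8.41 in UT and 4.98 in CD40. Within this shared cluster both BP libraries were above both IgG libraries, with overlapping intervals for BP replicate 2 and IgG replicate 1. UT, BPI and CD40 also lay above both IgG levels. The share of all genes with BP above IgG in this way was not counted, here or for the whole classes. Nothing is read from the order alone.

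**Figure D3:**
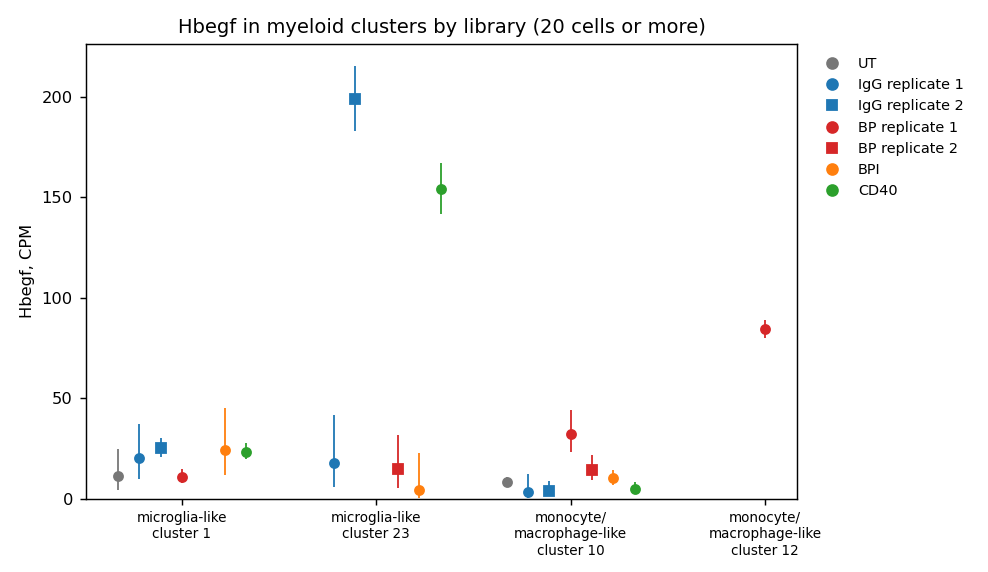
Hbegf (CPM, linear axis) in the microglia-like and monocyte/macrophage-like clusters, 1 point per library with 20 or more cells, bars are 95% Poisson intervals. Cluster 12 (84.2 CPM) is drawn for BP replicate 1 alone, and microglia-like cluster 23 splits into 154 and 199 CPM for CD40 and IgG replicate 2 against 17.9 CPM or less for the other 3 libraries.

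Microglia-like cells had Hbegf at 12.2 CPM in UT, 19.3 and 92.0 in IgG, 10.6 and 21.7 in BP, 16.8 in BPI and 72.7 in CD40. The 2 high libraries were IgG replicate 2 and CD40, which have consecutive names, and the IgG and BP values overlap. Cluster 23, led by P2ry12, Tmem119 and Cx3cr1, genes of resting microglia, held the split: Hbegf was at 199 CPM (183 to 215) and 154 CPM (141 to 167) in those 2 libraries and at 17.9, 14.6 and 4.10 CPM in IgG replicate 1, BP replicate 2 and BPI. Cluster 1, led by Spp1, Trem2 and Tnf, had 10.6 to 25.2 CPM in the 6 libraries with 20 or more of its cells. UT and BP replicate 1 had their microglia-like cells mainly in cluster 1 and give no value for cluster 23. The microglia-like cells of BP replicate 1 also stood apart in markers, as given for Errfi1 below. The log2 fold change of BP against IgG was -2.05 ± 0.78 (edgeR adjusted p = 0.998). It was past the threshold without BP replicate 2 (-2.50, edgeR adjusted p = 0.0317) and without the count filter (-2.05, 0.000475), and not without IgG replicate 2 (-0.34), IgG replicate 1 (-2.65) or BP replicate 1 (-1.49), where the adjusted p was 1, 1 and 0.548.

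Tgfa, transforming growth factor alpha, was higher in microglia-like than in tumour-like cells in 7 of 7 libraries. In microglia-like cells Tgfa was at 27.9 CPM in UT, 29.6 and 45.2 in IgG, 38.4 and 73.0 in BP, 39.8 in BPI and 46.4 in CD40. Tumour-like cells had 7.61 in UT, 8.64 and 11.8 in IgG, 21.1 and 11.3 in BP, 10.1 in BPI and 13.2 in CD40. The mean difference on the log2(CPM + 5) scale was 1.48 ± 0.45 (SD, n = 7), with p = 0.0156 in the two-sided exact paired permutation test, the smallest that 7 pairs allow, and 0.0267 after Benjamini-Hochberg adjustment over the 14604 genes tested in this pair of classes.

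Monocyte/macrophage-like cells had Tgfa at no more than 4.56 CPM. In the 4 libraries with 20 or more cells of both microglia-like clusters, it was higher in cluster 23 than in cluster 1: 39.4 and 24.1 CPM in IgG replicate 1, 72.8 and 27.9 in IgG replicate 2, 90.2 and 9.78 in BPI, and 73.2 and 30.1 in CD40. The intervals of the clusters overlapped in IgG replicate 1 alone. Oligodendrocyte-like cells had Tgfa at 79.7 CPM (60.7 to 103) in CD40 and 89.4 CPM (63.5 to 122) in IgG replicate 2, ependymal or choroid-like cells at 39.5 and 47.2 CPM. Endothelial-like cells had 66.0 CPM in BP replicate 1 and 13.55 to 27.3 CPM in the 4 other libraries with 20 or more of them.

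Areg, amphiregulin, a ligand that mast cells, basophils and regulatory T cells are known to make, was found mostly in immune cells, with 362 UMIs in all cells. Mast or basophil-like cells, 42 of 43 of which came from BP replicate 1, had Areg at 872 CPM (724 to 1042) and held 33.4% of its UMIs, against 0.0203% of the UMIs of all genes. T-like cells held 43.4% of the Areg UMIs, against 2.34% of those of all genes. Areg in T-like cells was at 0.512 CPM in UT, 41.0 and 0 in IgG, 9.27 and 20.2 in BP, 6.00 in BPI and 38.6 in CD40. The IgG replicate 1 value rests on 5 UMIs in 1 cell, and the 0 of IgG replicate 2 on 58 cells, so the 2 IgG libraries do not set a level.

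T-like cells were also read by whether they had a UMI of Foxp3, the transcription factor of regulatory T cells. A Foxp3 UMI was found in 11.4% of T-like cells (median depth 4312 UMIs) and in 0.373% of tumour-like cells (median 16330 UMIs), and free RNA was estimated at 0.0999% of the Foxp3 and 0.346% of the Areg UMIs of T-like cells. Pooled over libraries Areg was at 34.4 CPM (27.0 to 43.1) in 300 cells with a Foxp3 UMI and 5.94 CPM (4.73 to 7.38) in 2324 cells without. By library the levels were 399 and 2.92 CPM in CD40 (14 and 115 cells), 184 and 12.7 in BP replicate 2, 67.8 and 2.87 in BPI, 20.3 and 7.07 in BP replicate 1, and 3.94 and 0 in UT. IgG replicate 1 had the opposite order, with 0 CPM in its 2 cells with Foxp3 and 43.0 CPM in 37 cells without, and IgG replicate 2 had 0 UMIs in both (1 and 57 cells). Few cells carried these UMIs: 36 of the 300 cells with Foxp3 held its 75 Areg UMIs, and 28 of the 2324 cells without held 82, of which 61 were in 17 cells of BP replicate 1. The UT value rests on 1 UMI, and the 6 UMIs of BP replicate 2 came from 1 cell. The difference was not tested, and a cell without a Foxp3 UMI may still express the gene. Mast or basophil markers summed to 38.4 CPM in T-like cells of BP replicate 1 and 248 CPM in IgG replicate 2, against at most 2.18 CPM elsewhere. Their part in the Areg level of T-like cells was not tested. Monocyte/macrophage-like cells had Areg at 8.76 CPM (14 UMIs) in BP replicate 2 and 10.1 CPM (32 UMIs) in BPI, and at most 3.39 CPM elsewhere. In tumour-like cells it did not exceed 0.0448 CPM.

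**Figure D4:**
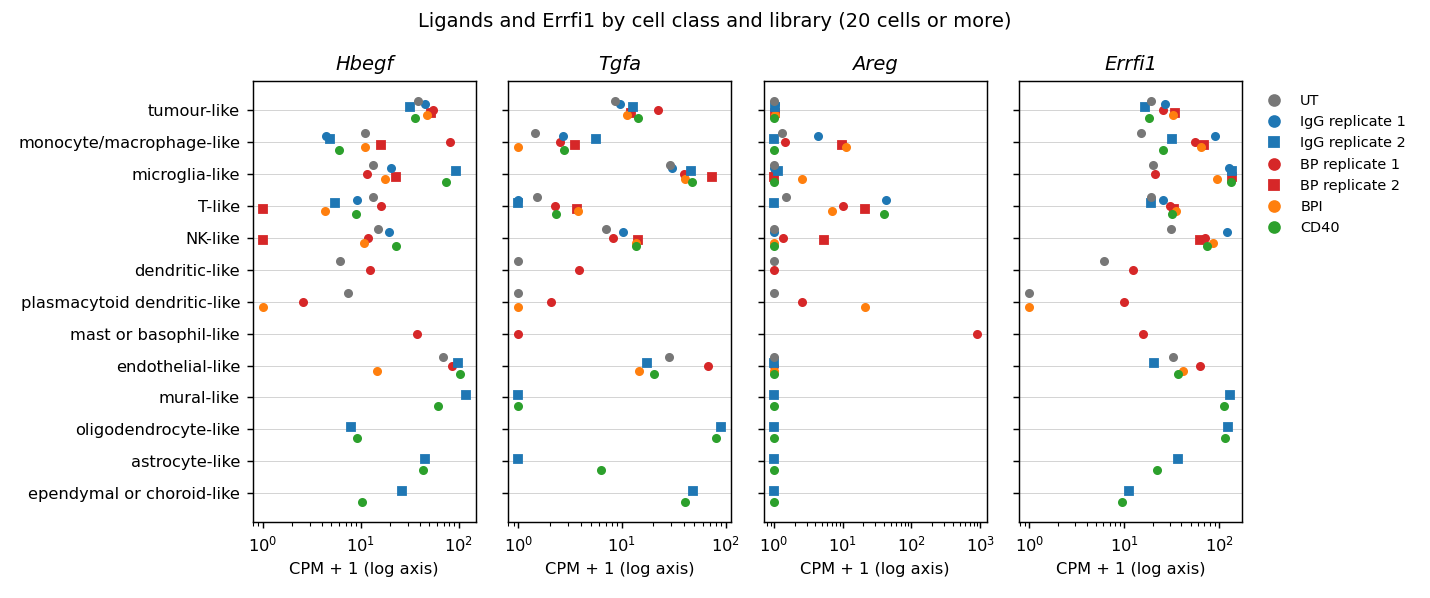
Hbegf, Tgfa, Areg and Errfi1 by cell class, as CPM + 1 on a log axis, 1 point per library with 20 or more cells of the class. Hbegf is spread over tumour, vessel and myeloid classes, Tgfa is raised in microglia-like and oligodendrocyte-like cells, and Areg stands at 884 CPM in the mast or basophil-like cells of BP replicate 1.

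Btc and Ereg were scarce. Btc, betacellulin, had 554 UMIs, 95.5% of them in tumour-like cells, at 2.58 CPM in BP replicate 1 and 0.353 to 0.823 CPM in the other 6 libraries. The log2 fold change of BP against IgG was 1.76 ± 0.90 (edgeR adjusted p of 1) and 0.33 without BP replicate 1. As a level pooled over libraries, Btc was highest in oligodendrocyte-like cells, at 5.58 CPM (2.55 to 10.6, 9 UMIs) against 0.931 CPM in tumour-like cells. Ereg, epiregulin, had 6 UMIs in all cells, 3 in tumour-like and 3 in monocyte/macrophage-like cells, too few to place it.

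Errfi1 (ENSMUSG00000028967, chromosome 4, 150853919 to 150868892, plus strand) was broadly present. In tumour-like cells Errfi1 was at 18.2 CPM in UT, 26.2 and 15.5 in IgG, 24.4 and 33.0 in BP, 31.3 in BPI and 17.1 in CD40, with IgG and BP overlapping. The highest values were those of IgG replicate 1, BP replicate 2 and BPI, the libraries that were lowest in Erbb4 and Erbb2. Microglia-like cells had 19.2 CPM in UT and 20.2 in BP replicate 1, against 125 and 136 in IgG, 134 in BP replicate 2, 93.4 in BPI and 133 in CD40. The 2 low libraries were in different groups, and both had their microglia-like cells mainly in cluster 1. Cluster 1 itself had 15.1 and 20.2 CPM in UT and BP replicate 1 and 88.0 to 94.3 CPM in the other 4 libraries with 20 or more of its cells. The microglia-like cells of BP replicate 1 stood apart in markers too: the 8 microglia markers summed to 4839 CPM against 8652 to 12840 elsewhere (7 of 8 lowest there, none at 0), and the 8 monocyte/macrophage markers to 1498 CPM against 88.8 to 1025 (3 of 8 highest there, Arg1 at 476 CPM). Their median mitochondrial share was 4.69% against 1.62% to 2.11%. UT, at a like Errfi1 level, had 10050 and 440 CPM of these lists, with Ccr2, F13a1, Chil3 and Arg1 at 0. The part of these differences in the Errfi1 level was not tested.

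The log2 fold changes of Errfi1 in microglia-like cells were -0.86 ± 0.79 for BP and -2.65 ± 1.23 for UT against IgG, neither past the threshold (edgeR adjusted p = 0.998 and 0.617). The BP value was 0.05 without BP replicate 1 (adjusted p = 0.968), and -2.66 and past the threshold without BP replicate 2 (adjusted p = 0.000379). The UT value was past the threshold without BP replicate 1 (-2.68, adjusted p = 0.0142), without BP replicate 2 (-2.66, 0.00954) and without the count filter (-2.68, 0.00237), and not in the 7 other alternatives (-2.57 to -2.77, 0.342 to 0.979). Monocyte/macrophage-like cells had Errfi1 at 14.1 CPM in UT, 89.7 and 31.1 in IgG, 54.5 and 67.6 in BP, 63.9 in BPI and 24.8 in CD40. UT was lowest in both myeloid classes, in microglia-like cells close to BP replicate 1. NK-like cells had 30.0 to 119 CPM, and unnamed cluster 0.2 of CD40 had 341 CPM (286 to 404).

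Areg, found mostly in T-like and mast or basophil-like cells, and Errfi1, found in many classes, share a motif before their starts. The stretches below are the 100 bases before the gene start from RefSeq (GRCm38.p6, plus strand), with the cyclic AMP response element TGACGTCA and the TATA motif TATAAA in capitals. The window of Areg is chr5:91139499-91139598, ending at the base before its start. The window of Errfi1 is chr4:150854970-150855069, before the second of its 2 listed starts, and lies in an intron of the longer transcript.
Areg: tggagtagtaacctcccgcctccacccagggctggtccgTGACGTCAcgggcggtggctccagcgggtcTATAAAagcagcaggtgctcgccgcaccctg
Errfi1: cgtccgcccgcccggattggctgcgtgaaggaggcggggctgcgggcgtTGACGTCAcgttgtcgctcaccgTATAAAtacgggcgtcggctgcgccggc
TGACGTCA, which reads the same on both strands, begins 61 bases before the start of Areg and 51 before that of Errfi1, and TATAAA 31 and 28 bases before. Promoter windows (250 bases before to 50 after the start) were listed for 7 members, with 8 windows, and 2 of the 8 held TGACGTCA. Of all 32851 windows, 1.79% held TGACGTCA, 13.6% held TATAAA on either strand, and 0.17% held both. The match is a description of these letters, and no binding was measured.

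Next, the 3 larger immune classes were set against tumour-like cells, library by library, to ask which class holds each transcript. A member was tested only where its mean was at least 1 CPM in both classes, since one below that in 1 class could enter only by being high in the other. Of 6 members tested in monocyte/macrophage-like cells, 4 were lower than in tumour-like cells (Egfr, Erbb4, Hbegf, Tgfa) and 1 was higher (Errfi1), at an adjusted p under 0.05 in the exact paired permutation test, where 73.8% of the 11909 genes at this level passed. In microglia-like cells 2 of 5 tested members were lower (Egfr, Erbb4) and Tgfa was higher, beside 65.7% of 12309 genes. In T-like cells 3 of 5 were lower (Egfr, Hbegf, Tgfa), beside 63.6% of 11690 genes. These shares are near the background, and nothing is read from the number of members that differed. For Erbb4, the tumour-like level of IgG replicate 1, BP replicate 2 and BPI came mostly from 102 to 167 cells, as given above. The larger tumour clusters of BP replicate 2 had 0.353 CPM, against 1.25 CPM in its monocyte/macrophage-like cells. In IgG replicate 1 these values were 0.446 and 0 CPM.

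Of the tested members, Egfr had the largest differences, at -3.72 ± 0.32 (SD over 7 libraries, log2(CPM + 5) scale) in monocyte/macrophage-like, -3.71 ± 0.51 in microglia-like and -4.07 ± 0.47 in T-like cells, lower in 7 of 7 libraries each. For Hbegf in monocyte/macrophage-like cells, BP replicate 1 went against the other 6 libraries. The median over these genes was -0.51, -0.33 and -0.46. Errfi1 was higher by 0.78 ± 0.58 in monocyte/macrophage-like cells in 6 of 7 libraries (exact p = 0.0312, adjusted 0.0412). In microglia-like cells it was higher by 1.52 ± 1.19 in 6 of 7 libraries and did not pass (exact p = 0.0469, adjusted 0.066). Without a test, Areg had a mean of 16.5 CPM in T-like and 0.0249 CPM in tumour-like cells, and Erbb2 a mean of 9.75 CPM in tumour-like cells and 0.671, 0.561 and 0.142 CPM in monocyte/macrophage-like, microglia-like and T-like cells.

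The treatments were compared within each class on counts summed per library, with edgeR and adjustment over all genes of the class. In tumour-like cells 0 of the 8 members tested passed for BP, BPI or CD40 against IgG, and 0 of 7 for UT, where Egfr is described only and not counted. Among all genes, 0% of 20213 genes (20002 for UT) passed and 390, 195, 16 and 2432 had an unadjusted p under 0.05. In monocyte/macrophage-like cells 0 of 6 members passed, beside 0% of 11777 genes for BP, BPI and CD40 and 0.097% of 12368 for UT, with 948, 1298, 116 and 1467 genes at an unadjusted p under 0.05. In microglia-like cells 0 of 4 passed, beside 0% of 12336 genes (9684 for UT), with 569, 391, 43 and 781 at an unadjusted p under 0.05. In T-like cells 0 of 3 passed, beside 0.748% for BP, 0.597% for BPI, 0.108% for CD40 and 2.45% for UT, with 724, 630, 359 and 1306 at an unadjusted p under 0.05.

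Erbb4 overlaps Gm16076, a separately counted gene, on the same strand, so its counts may be affected by that overlap. Egfr, Erbb2, Ereg and Errfi1 each overlap a gene on the opposite strand (Egfros, Mien1, Gm19610 and 1700045H11Rik). How reads in those overlaps were assigned was not checked. The members left out of these tests had too few counts, and Areg and Ereg were untested in tumour-like cells. The fits for BPI, CD40 and UT have 1 treated library each, which was taken to vary like the IgG and BP libraries. All comparisons share the IgG libraries, which differed between themselves in Erbb4 and Hbegf as described above.

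In tumour-like cells the remaining fitted differences of BP against IgG did not pass the test. The log2 fold changes were -0.13 ± 0.33 for Egfr, 0.50 ± 0.56 for Erbb2, 0.39 ± 0.75 for Erbb3, 0.66 ± 1.61 for Erbb4, 0.64 ± 0.36 for Tgfa and 0.45 ± 0.43 for Errfi1. With 1 library left out, those of the 4 receptors changed sign, over ranges of -0.52 to 0.17, -0.24 to 0.99, -0.23 to 1.42 and -1.46 to 4.45 in the same order. Those of Hbegf, Tgfa and Errfi1 stayed above 0, from 0.14 to 0.83, 0.26 to 0.93 and 0.057 to 0.98.

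The wider pathway was read from 5 lists with 59 genes: other EGF-family ligands, proteases that release ligands, receptor inhibitors and turnover factors, adaptors with the RAS-ERK core, and ERK feedback targets. All 59 had enough counts to be tested in tumour-like cells, against 50 to 52 in monocyte/macrophage-like, 43 to 50 in microglia-like and 43 to 44 in T-like cells, and none of the 6 other ligands was tested in T-like cells or for UT in microglia-like cells. Of the genes tested, 0 passed the edgeR test in the 16 comparisons (46 of 804 tests had an unadjusted p under 0.05), so the 2 with the highest mean level in tumour-like cells are given for each list. Among ligands, the neuregulin gene Nrg2 ranged from 1.82 to 27.6 CPM and Egf, the founding ligand, from 3.39 to 4.95. The shedding proteases Adam10 and Adam17 ranged from 47.6 to 127 and from 24.9 to 51.0 CPM.

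Of the phosphatases that dephosphorylate the receptors, Ptpn1 ranged from 59.1 to 73.7 and Ptprj from 43.4 to 112 CPM. In the RAS-ERK core, Map2k2, the kinase MEK2, ranged from 133 to 186, and Hras from 90.6 to 186 CPM. Etv5, a transcription factor induced by ERK, was at 62.5, 50.3 and 41.4 CPM in IgG replicate 1, BP replicate 2 and BPI and at 276.6 to 322.5 CPM in the other 4 libraries, the same division as Erbb4, while the related Etv1 ranged from 104 to 190. This division was not particular to Etv5. The same 3 libraries were lowest in Nrg2 (1.82 to 3.38 CPM), Adam10 (47.6 to 55.0) and Ptprj (43.4 to 49.4). They were highest in Hras (173 to 186 CPM, against 90.6 to 147 elsewhere). Egf, Adam17, Ptpn1, Map2k2 and Etv1 did not divide the libraries in this way. For BP in tumour-like cells the median log2 fold changes of the lists lay between -0.08 and 0.29, beside 0.00066 for all genes tested.

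Across 57 sums of 1 named class in 1 library (15 classes, 7671 genes with enough counts), the genes most like Egfr were B3galt1 (Pearson r = 0.86), Tenm3 (0.85) and Map2 (0.84). Those most like Errfi1 were Arrdc3 (0.70), Rhob (0.64) and Vps13c (0.62), and those most like Hbegf were Nhs (0.74), Amotl1 (0.73) and Pttg1ip (0.72). These sums share libraries and depth, and the values are a description.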

How the data were processed

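The deposited matrices hold UMI counts per gene and barcode for cells and empty droplets alike, made by the authors with Cell Ranger 4 per the file headers and 7.0.1 per the submitters' processing notes, on mm10 (GRCm38). Whether intronic reads were counted is not given in the sources used here. V2 chemistry is given for all libraries per the labels, but the barcodes of UT come from another 10x list. The matrices list 713553 barcodes for UT and 1487060 to 2310016 for the others, so 1 chemistry for all is not borne out. Groups came from the titles. Cells had at least 1000 UMIs, 500 genes and at most 15% mitochondrial UMIs, and the highest Scrublet scores (0.8% per 1000 cells) were removed as doublets, 4.50% to 8.44% of a library. Cells were clustered in scanpy 1.11.5 (2000 variable genes without the members and pathway genes, 30 components, 15 neighbours, Leiden resolution 1). Clusters were named from 19 marker lists where 3 markers were raised (20 CPM and 4 times the lower-quartile cluster plus 5 CPM, and 10 CPM and 2 times in a second pass). The second pass, and the rule that a cluster led by smooth muscle genes stays unnamed, were set after seeing the data.

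Counts summed per library and class were tested with edgeR's quasi-likelihood test (TMM, filterByExpr, Benjamini-Hochberg, threshold 0.05), on 6 libraries, or 7 for UT, with DESeq2 as an alternative. SE is the log2 fold change divided by the root of F. Class differences used log2(CPM + 5) for genes with a mean over both classes of at least 1 CPM, adjusted over all of them (14247 to 14604 genes), and calls are given for those at 1 CPM in both classes, a limit set after seeing the data. The plan tested the members' 30 comparisons and adjusted over these; 16 were tested, and either adjustment called 11. The fits were also run on simulated counts with the same mean per gene in every library, apart from genes changed in BP. The division between libraries of a group was not simulated, so that run does not cover it. Free RNA was profiled in barcodes with up to 100 UMIs, its share estimated from the 50 genes lowest in a class relative to that profile. The labels do not say that libraries of a group are separate experiments, so p-values measure spread between libraries.

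The named genes were the members, up to 3 called genes per pathway list or else the 2 highest in tumour-like cells, and 3 genes most like Egfr, Errfi1 and Hbegf. Members and lists were chosen with earlier results of these data known. The alternatives were DESeq2, other scaling factors, no count filter, each IgG and BP library left out, a replicate block, cells with 2000 UMIs, free RNA subtracted, members kept in clustering, and other pseudocounts.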

Additional observations from a re-analysis of the deposited data

How the results depend on the processing

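The threshold calls of the members depended on the tool and on single libraries. With DESeq2, 1 member passed for BP in monocyte/macrophage-like cells. Without the count filter, the members passing were 1 for BP in monocyte/macrophage-like cells and 1 for BP and 2 for UT in microglia-like cells. Leaving out single IgG or BP libraries gave 0 to 2 members for BP in monocyte/macrophage-like and in microglia-like cells, and 0 to 1 for BPI and UT in monocyte/macrophage-like, UT in microglia-like and UT in T-like cells, the others staying at 0. Beside the passes of Hbegf and Errfi1 given above, these were Erbb4 without IgG replicate 1 for BP, BPI and UT (log2 fold changes of -3.51, -3.74 and -3.97, edgeR adjusted p = 0.00726, 0.0486 and 0.0237) and Errfi1 without BP replicate 2 for UT (-1.66, 0.0267) in monocyte/macrophage-like cells, Hbegf without the count filter for UT in microglia-like cells (-2.22, 0.0393), and Areg without IgG replicate 2 for UT in T-like cells (-6.13, 0.00404), where UT had 1 UMI. In monocyte/macrophage-like cells Erbb4 was at 0 CPM in IgG replicate 1, 25.1 in IgG replicate 2, and 2.49 and 1.25 in BP. Its passes without IgG replicate 1 thus rest on IgG replicate 2 alone as control. The class differences fell from 11 to between 3 and 6 without 1 library, since 6 pairs allow no p below 0.0312, and kept their direction. Over all alternatives, other pseudocounts included, the Egfr difference ranged from -4.43 to -2.72 in monocyte/macrophage-like cells. It ranged from -4.46 to -2.67 in microglia-like and from -4.81 to -2.87 in T-like cells, and that of Tgfa in microglia-like cells from 0.957 to 1.76. The BP log2 fold change in tumour-like cells ranged, with 1 library left out, from -0.52 to 0.17 for Egfr, -0.24 to 0.99 for Erbb2, -0.23 to 1.42 for Erbb3 and -1.46 to 4.45 for Erbb4, and that of Errfi1 in microglia-like cells from -2.66 to 0.05156. Same-numbered IgG and BP libraries did not deviate together (correlations of -0.714, -0.227, 0.0233 and -0.0858 in tumour-like, monocyte/macrophage-like, microglia-like and T-like cells). With the replicate block, 0 members passed for BP in any class, and all genes called were 0, 28, 6 and 6 in tumour-like, monocyte/macrophage-like, microglia-like and T-like cells. With IgG replicate 1 paired to BP replicate 2, chosen after seeing the data, the crossed block called 1 member in monocyte/macrophage-like cells and 0 in the others, with 10, 513, 0 and 110 genes in all. DESeq2 called 48, 110, 44 and 14 genes for BP where edgeR called 0, 0, 0 and 69, and for UT 803, 213, 75 and 90 where edgeR called 0, 12, 0 and 230, for BPI 8, 193, 22 and 15 (edgeR 0, 0, 0 and 55) and for CD40 0, 4, 0 and 0 (edgeR 0, 0, 0 and 10). Without the count filter 418, 601, 46 and 636 genes passed for BP, BPI, CD40 and UT in monocyte/macrophage-like and 307, 131, 39 and 296 in microglia-like cells, and 113 for BP and 19 for CD40 in T-like cells. With free RNA subtracted, 46 (BPI) and 58 (UT) passed in monocyte/macrophage-like and 8, 21, 1 and 123 in T-like cells; for UT in monocyte/macrophage-like cells RLE factors gave 1 and keeping the members in clustering 34. With 1 library left out the counts over all genes for BP, BPI, CD40 and UT ranged from 0 to 731, 3 to 787, 0 to 1 and 48 to 1175 in monocyte/macrophage-like, 0 to 758, 0 to 125, 0 to 2 and 0 to 298 in microglia-like, and 9 to 237, 8 to 126, 1 to 23 and 61 to 467 in T-like cells. The cause of these changes was not tested. Precision is limited by few cells: IgG had 77 and 62 monocyte/macrophage-like and 39 and 58 T-like cells.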
